A study of Mus musculus with 8 samples.

Results

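The transcriptional response of wild-type mouse macrophages to lipopolysaccharide (LPS) is described here across genes. It rests on 4 of the 8 arrays of the series, chosen by their titles: 2 of Tpl2 wild-type macrophages left unstimulated and 2 of Tpl2 wild-type macrophages given 1 μg/mL of Escherichia coli LPS. The cells were bone marrow cells of wild-type mice grown into macrophages with macrophage colony-stimulating factor, so all 4 arrays share that growth factor. The other 4 arrays are the same treatments in Tpl2-deficient macrophages, which lack the kinase encoded by Map3k8. They enter the estimate of the spread and are compared only where the wild-type response differs from theirs. The probe set of Map3k8 gave 9.27 and 9.28 without LPS and 11.01 and 10.91 with it in wild type and went from 8.32 and 8.23 to 9.83 and 10.09 in the deficient cells, lower in every deficient array than in the wild-type arrays of the same treatment; its position relative to the deleted part was not known here. The time of LPS exposure of these arrays is not assigned in the labels. Both arrays of a group are labelled as biological replicates, with no word on separate animals or cultures, so a p-value here covers no more than the spread among these samples, which may be technical.

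LPS is the outer-membrane glycolipid of gram-negative bacteria. It is carried by Cd14 to the receptor complex of Tlr4 and Ly96, which signals through the adaptor Myd88 to NF-kB and MAP kinases and through the adaptor Ticam1 to interferon regulatory factors. Interferon beta made by the cell then acts back on it through its receptor and STAT proteins, which switch on a further set of antiviral genes. Macrophages in this state are known for cytokine and chemokine release, for nitric oxide and prostaglandin production and for a shift of their energy metabolism.

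Each gene is given by 1 probe set, as a log2 RMA intensity (a background-corrected, quantile-normalised signal), for 18193 genes. In the text, a first pair of values gives unstimulated replicates 1 and 2 and a second pair gives LPS replicates 1 and 2. Changes are LPS minus unstimulated on the log2 scale ± the standard error of a limma fit, and a gene is said to rise or fall where its adjusted p was under 0.05 (limma, Benjamini-Hochberg over all genes). In every gene named as rising or falling, the 2 LPS arrays lay on the same side of both unstimulated arrays. The rules for naming genes asked for this, and it held in 14604 of the 18193 genes. Across the genes, the median SD between the arrays of a group was 0.0662 without LPS and 0.066 with it, and arrays of a group correlated at r = 0.9973 in both groups. The files hold no detection calls. Where the lower group lay under the median of its arrays (6.48 to 6.51), its level is not shown to be above background, the fold is written with "at least" against that median, and such genes have no order among themselves. Where both groups lay under it, no fold is given.

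The cells carried the signals of macrophages under both conditions. The colony-stimulating factor receptor Csf1r gave 14.74 and 14.72 without LPS and 14.52 and 14.53 with it, and the surface glycoprotein Adgre1 (F4/80) gave 13.78 and 13.74 without LPS and 13.69 and 13.74 with it. Neither passed the test, although the mean of the Csf1r probe sets fell by 0.57 (adjusted p = 0.000707, limma), nor did the integrin Itgam (Cd11b, -0.19) or the lysozyme Lyz2 (-0.06). Other macrophage markers moved: of the 15 measured, 6 rose and 5 fell, beside 21.3% and 30.9% of all genes tested. Those that moved at least 2-fold were the scavenger receptors Marco (2.98 ± 0.15) and Msr1 (1.84 ± 0.10) and the Fc receptor Fcgr1 (1.86 ± 0.11), which rose, and the factor Cebpa (-4.42 ± 0.10) and the receptor kinase Mertk (-1.18 ± 0.14), which fell. By less than 2-fold the LPS co-receptor Cd14 rose (0.74 ± 0.10), as did the lineage factor Spi1 (PU.1, 0.65 ± 0.10), while the endosomal glycoprotein Cd68 (-0.45 ± 0.09) and the mannose receptor Mrc1 (-0.61 ± 0.18) fell. The fall of Mrc1 did not pass without unstimulated replicate 1 (-0.48, adjusted p = 0.109, limma) or LPS replicate 2 (-0.50, adjusted p = 0.108, limma). In bulk RNA, here and below, fewer cells of a type and less RNA per cell cannot be told apart. Of 11 T and NK cell and 7 erythroid markers measured, 2 and 1 rose, none of them by 2-fold, and none fell. Of 9 B cell markers 1 rose and 2 fell, the adaptor Blnk by 1.04. Both group means lay under the array medians in 5 of the 11 T and NK cell markers. The same held for 6 of the 9 B cell and 5 of the 7 erythroid markers, and not for the remaining members of these lists. Among the markers counted below it held for 8 of 13 neutrophil, 6 of 9 mast cell and basophil and 6 of 10 endothelial markers. It also held for 3 of 10 dendritic cell, 2 of 7 progenitor and 2 of 10 osteoclast markers. Examples low in all 4 arrays were the B cell receptor component Cd79a (5.81 and 6.01 without LPS and 5.79 and 5.92 with it), the T cell receptor component Cd3g (4.39 and 4.56 without LPS and 4.61 and 4.54 with it) and the hemoglobin chain Hba-a1 (5.001 and 4.85 without LPS and 5.08 and 4.98 with it). Among 13 neutrophil markers 8 rose and 1 fell, but the granule proteases Elane (6.30 and 6.29 without LPS and 6.51 and 6.48 with it) and Prtn3 did not pass, with both group means under the medians. The neutrophil markers that rose at least 2-fold were S100a8 (1.38 ± 0.13) and Lcn2 (at least 26.8-fold), an iron-siderophore binding protein. Of 9 mast cell and basophil markers 2 rose and 1 fell, the receptor kinase Kit (from 6.87 and 6.79 to 5.44 and 5.11), which is also among the 7 progenitor markers, of which 3 rose and 2 fell. Of 12 stromal markers 2 rose, by 2-fold or more the receptor kinase Pdgfrb alone (from 5.12 and 5.12 to 9.04 and 8.88). Both group means lay under the medians in 3 of the 12. Of 10 endothelial markers 5 rose and 1 fell: the receptor kinase Kdr rose (1.41 ± 0.16) and the clotting protein Vwf fell (-2.25 ± 0.18). Of 10 dendritic cell markers 4 rose and 2 fell, and the widest change was in Bst2 (1.73 ± 0.10), which is also interferon-induced. Of 10 osteoclast markers 3 rose and 4 fell, among them the acid phosphatase Acp5 (1.95 ± 0.12) and the pump subunit Atp6v0d2 (-1.89 ± 0.19). Whether other cells add to these changes was not tested.

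In all, 3872 genes rose with LPS, 21.3% of those tested, and 5627 fell, 30.9%. At least 2-fold, 994 genes rose and 2116 fell. The rises were fewer but reached further at the extremes: 434 genes rose and 394 fell at least 4-fold, and 101 rose and 19 fell at least 16-fold. The split between directions differed with the signal level. Genes were cut into 5 equal groups by their mean over the 8 arrays. In the lowest group (2.90 to 5.47), 608 rose and 115 fell, with a median change of 0.13, and in the next (5.47 to 6.72) 893 rose and 376 fell, with a median of 0.18. In the middle group (6.72 to 8.27) 719 rose and 1364 fell (median -0.02), and in the next to highest (8.27 to 9.99) 626 rose and 2123 fell (median -0.46). The highest group (9.99 to 15.25) did not continue this order: it had the largest share of rises, with 1026 higher and 1649 lower (median -0.21). Falls made up 58.3% of the next to highest group and 45.3% of the highest. The counts of gene lists below stand against 21.3% rises and 30.9% falls over all genes. The lists were not matched for signal level. Genes that macrophages are not known to use showed the small upward step of the low groups: of 38 olfactory receptor genes 10 rose and 0 fell (median 0.21, no member by 2-fold), and of 48 keratin genes 11 rose and 1 fell (median 0.20). The mean of 18 hybridisation spike-in probe sets, added in equal amount to each array, was 0.137 higher with LPS. Centring arrays on them lowered every gene's change by this same amount. With it, 2091 genes rose and falls made up 74.9% of the calls instead of 59.2%. The 3' minus 5' difference of the Actb probe sets, a sign of RNA integrity, was 0.813 and 0.67 without LPS and 0.462 and 0.551 with it.

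**Figure D1:**
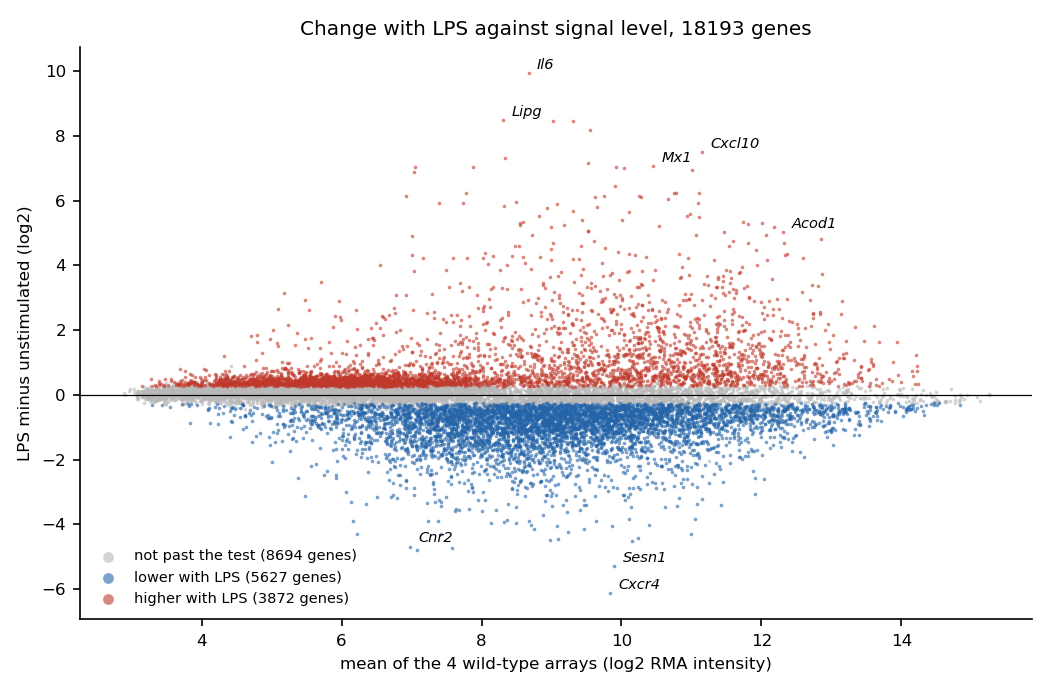
Change with LPS (LPS minus unstimulated, log2, y axis) against the mean of the 4 wild-type arrays (log2 RMA intensity, x axis), 1 point per gene, red for the 3872 genes that rose, blue for the 5627 that fell and grey for the 8694 that did not pass. The rises reach 9.95 (Il6) and the falls -6.13 (Cxcr4), and the band of low-signal genes on the left lies slightly above 0.

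The largest rises that were measured on both sides were led by the chemokine gene Cxcl10 and took in antiviral genes, an interleukin, a signalling inhibitor, a costimulatory receptor and a collagenase. Cxcl10, which attracts activated T cells, rose from 7.63 and 7.18 to 14.96 and 14.86 (7.51 ± 0.18, 182-fold). Mx1, an antiviral dynamin-like GTPase, rose from 7.03 and 6.80 to 13.95 and 14.02 (134-fold), and the interleukin Il1b rose from 7.44 and 7.63 to 14.48 and 14.46 (122-fold). In each of these genes the arrays of a group lay close together and the LPS arrays far above both unstimulated arrays. Socs3, an inhibitor of cytokine signalling through STAT3, rose 75.4-fold, the costimulatory receptor Cd40 65.7-fold and the collagenase Mmp13 60.6-fold. Cmpk2, a mitochondrial nucleotide kinase, Slfn4, a schlafen family member, Oasl1, a 2'-5' oligoadenylate synthetase-like protein, and the GTPase Gbp6 rose by 6.25, 6.45, 6.25 and 6.13. The unstimulated arrays of Ifit1bl1 lay apart (from 7.79 and 6.58 to 13.30 and 13.35), which leaves its rise of 6.14 ± 0.28 with a wider error than the others. From a level under the array medians rose Il6 (from 3.65 and 3.75 to 13.65 and 13.65, at least 142-fold), the inducible cyclooxygenase gene Ptgs2 (from 5.16 and 4.99 to 13.55 and 13.55, at least 133-fold), Cd69, an early activation antigen that retains cells in tissue (from 5.52 and 5.38 to 13.65 and 13.63, at least 142-fold), Ch25h, which makes 25-hydroxycholesterol (from 6.31 and 6.49 to 13.51 and 13.41, at least 124-fold), Itgb8, an integrin chain that activates TGF-beta (from 3.60 and 3.46 to 10.48 and 10.66, at least 16.8-fold) and Iigp1, an immunity-related GTPase (at least 97.8-fold).

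The largest falls included receptors, stress-response genes and lineage regulators. Cxcr4, the receptor for the retention chemokine Cxcl12, fell from 12.89 and 12.91 to 6.74 and 6.81 (69.9-fold). Sesn1, a sestrin that restrains mTORC1, fell from 12.57 and 12.51 to 7.27 and 7.24 (39.1-fold), and Cerk, which phosphorylates ceramide, fell from 12.46 and 12.37 to 7.85 and 7.92 (23.1-fold). The LPS arrays of these genes lay 4 or more units below the unstimulated arrays. Slc40a1, the iron exporter ferroportin, fell 22.1-fold, Cebpa, a myeloid lineage factor, 21.4-fold, Lyl1, a hematopoietic helix-loop-helix factor, 16.4-fold, and Arrb1, the receptor adaptor beta-arrestin 1, 17.8-fold. The T cell costimulatory receptor Cd28 was also among them (from 11.20 and 11.23 to 6.81 and 6.66). To a level under the array medians fell the cannabinoid receptor Cnr2 (from 9.34 and 9.32 to 4.70 and 4.57, at least 7.07-fold), the lysosomal GTPase Rragd (at least 12.1-fold), the arrestin-like Arrdc3 (at least 7.07-fold) and the microRNA effector Tnrc6b (at least 9.83-fold).

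**Figure D2:**
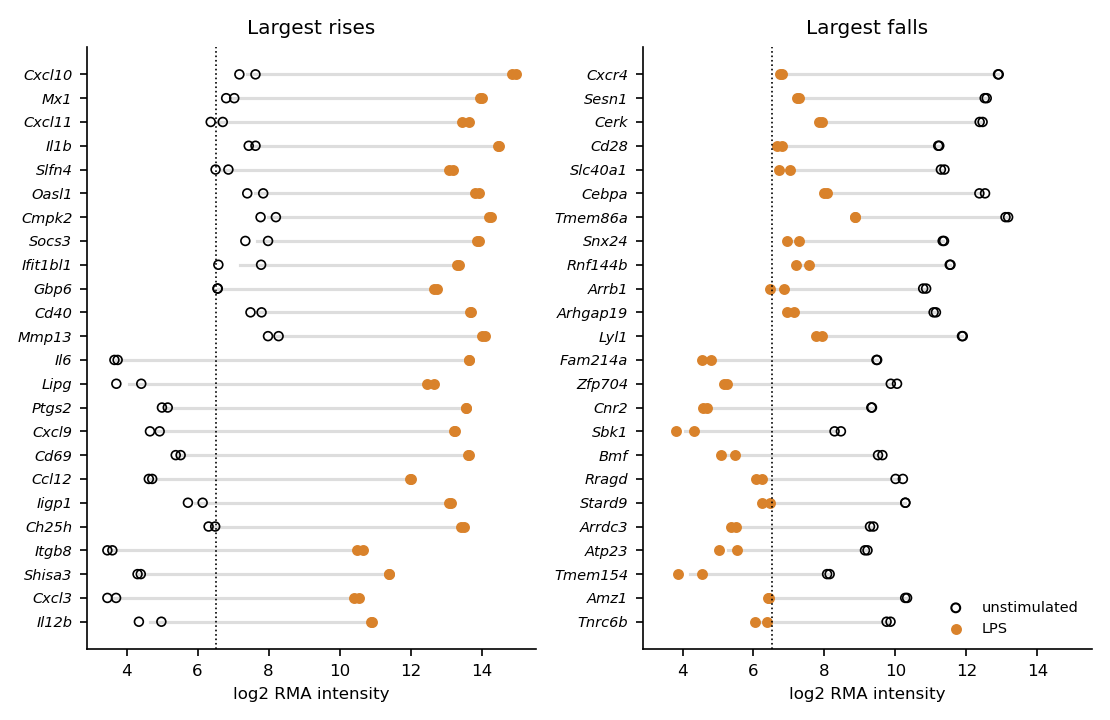
Log2 RMA intensity (x axis) of the 24 largest rises and 24 largest falls, with open circles for the 2 unstimulated arrays, filled circles for the 2 LPS arrays and a grey line between the group means. The upper 12 genes of each panel have both group means at or above the array medians and the lower 12 start or end under them (dotted line at 6.51), as Il6 does at 3.65 and 3.75 without LPS. Open and filled circles do not overlap in any gene shown, because the choice of genes required it.

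The receptors and first adaptors of the pathway did not move as a block. Of 16 toll-like receptors and LPS co-receptors, 9 rose and 2 fell (median 0.47, against 0.04 over all genes). These are 56.2% and 12.5%, beside 21.3% and 30.9% of all genes tested. Tlr4, the LPS receptor itself, fell from 10.19 and 10.24 to 9.54 and 9.45 (-0.71 ± 0.12), and its partner Ly96 rose by 0.56 ± 0.15, which did not pass without unstimulated replicate 2 (0.51, adjusted p = 0.055, limma). Tlr3, the sensor of double-stranded RNA, rose from 8.56 and 8.63 to 11.92 and 12.06 (10.5-fold), and Tlr1, Tlr2 and Tlr6, which pair to sense bacterial lipoproteins, rose by 2.12, 1.63 and 1.90. Tlr13, a sensor of bacterial ribosomal RNA, fell by 1.67, while the DNA sensor Tlr9 (0.04) and the flagellin receptor Tlr5 (0.09) did not pass. Among 20 adaptors and kinases, 12 rose and 6 fell (60% and 30%). Traf1, an adaptor of TNF receptors, rose from 6.90 and 7.06 to 12.03 and 12.09 (33.8-fold), Peli1, a ubiquitin ligase acting on IRAK kinases, 6.34-fold, and Irak3, an inactive kinase that restrains the pathway, 5.41-fold. Myd88 rose by 1.82 ± 0.10. The kinases Map3k7 (TAK1, -1.31 ± 0.11) and Irak1 (-0.92 ± 0.14) fell, and the ligase Traf6, at 8.24 and 8.17 without LPS and 8.22 and 8.17 with it, did not pass. Peli2, a paralog of Peli1, fell at least 5.94-fold.

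Genes of the NF-kB system rose together. This factor is a dimer of Rel proteins that is held in the cytosol by IkB proteins until they are degraded. Of 13 measured subunits and inhibitors, 11 rose and 0 fell, with a median of 1.98. Rises made up 84.6% of them, beside 21.3% of all genes tested. The subunit Rel rose from 7.87 and 7.93 to 10.94 and 11.01 (8.45-fold), Nfkb2 from 9.15 and 9.11 to 11.69 and 11.79 (6.10-fold) and Relb by 1.37 ± 0.11, and Rela, the main activating subunit, by 0.82 ± 0.13. The inhibitors rose as well: Tnfaip3 (A20), a deubiquitinase that ends the signal, rose from 10.37 and 10.36 to 13.89 and 13.98 (11.9-fold), Nfkbie from 9.49 and 9.43 to 12.36 and 12.43 (7.66-fold) and the nuclear IkB protein Nfkbiz by 3.35 ± 0.13. Nfkbid (-0.07) and Tnip2 (0.12) did not pass. Rela and Relb were named after their values were seen.

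Stretches of 4 promoters are shown as examples of the NF-kB consensus: Nfkb2 and Nfkbie of this system, and the cytokine genes Il6 and Cxcl10. RefSeq lists promoters for 14452 of the genes tested, 18109 in all, each of 300 bases (250 before and 50 after the start). The NF-kB consensus, searched on both strands, was in 62.5% of the 16 promoters listed for NF-kB subunit and inhibitor genes (95% Wilson interval 38.6 to 81.5), in 20.7% of the 29 listed for interleukins and other cytokines (9.85 to 38.4), in 28.6% of the 28 listed for chemokine ligands (15.3 to 47.1) and in 9.98% of all promoters. The 16, 29 and 28 promoters belong to 11, 22 and 25 genes. Promoters of a gene can overlap, so the intervals, here and below, cover counting error only. No test was made between these shares. A match is a run of letters and not a bound site. The following stretches end at the base before the start, run 5′ to 3′ and have the consensus in capitals, on either strand and merged where matches overlap. They lie in build GRCm38.p6 at chr19:46304677-46304736, plus strand (Nfkb2, 1 of 3 listed promoters), chr17:45555580-45555699, plus strand (Nfkbie), chr5:30013054-30013113, plus strand (Il6), and chr5:92348890-92349059, minus strand (Cxcl10).
Nfkb2: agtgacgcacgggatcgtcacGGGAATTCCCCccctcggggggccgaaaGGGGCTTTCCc
Nfkbie: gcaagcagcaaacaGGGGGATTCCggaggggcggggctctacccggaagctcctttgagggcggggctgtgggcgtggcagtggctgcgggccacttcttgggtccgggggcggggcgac
Il6: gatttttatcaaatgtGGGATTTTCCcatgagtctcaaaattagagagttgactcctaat
Cxcl10: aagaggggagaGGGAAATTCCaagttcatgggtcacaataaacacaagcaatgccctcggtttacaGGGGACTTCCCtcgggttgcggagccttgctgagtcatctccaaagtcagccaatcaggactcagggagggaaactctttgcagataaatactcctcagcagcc

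The AP-1 and immediate-early genes were mixed, with 10 higher and 6 lower of 23 (43.5% and 26.1%, beside 21.3% and 30.9% of all genes tested). Their median of 0.14 turned to 0.00 when arrays were centred on the spike-ins, a step that lowers every change by 0.137. Jun and Fos, the classical subunits, fell (-1.47 ± 0.11 and -1.38 ± 0.11), and Myc did not pass (-0.32). The leucine-zipper factors Batf2 and Batf, which pair with Jun proteins, rose from 7.89 and 7.59 to 12.17 and 12.15 (21.4-fold) and from 8.29 and 8.26 to 11.21 and 11.29 (7.89-fold). The survival gene Ier3 rose by 1.99 ± 0.13 and the small Maf protein Mafk by 1.53 ± 0.11.

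Inhibitors of signalling rose more often than they fell. Of 23 feedback inhibitors 13 rose and 5 fell (56.5% and 21.7%, beside 21.3% and 30.9% of all genes tested). The MAP kinase phosphatase Dusp2 rose from 8.54 and 8.75 to 12.97 and 13.05 (20.5-fold), Dusp16, which acts on JNK, 12.7-fold and Dusp1 4.79-fold, whereas the ERK phosphatase Dusp6 fell by 0.94 and Dusp4 did not pass (0.11). Socs1, the inhibitor of interferon receptor signalling, rose at least 12.9-fold, and Socs6 fell by 1.49. Among 19 regulators of mRNA decay, 7 rose and 8 fell (36.8% and 42.1%), and paralogs moved in opposite directions. Zfp36 (tristetraprolin), which destabilises AU-rich cytokine mRNAs, rose from 11.67 and 11.72 to 13.41 and 13.40 (1.71 ± 0.10). Its paralogs Zfp36l1 and Zfp36l2 fell from 11.46 and 11.72 to 8.65 and 8.34 and from 13.47 and 13.43 to 10.28 and 10.48, 8.54-fold and 8.37-fold. The endonucleases Zc3h12a (regnase-1) and Zc3h12c rose 4.43-fold and 12.5-fold.

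The host transcripts of 2 microRNAs with a place in this pathway were also measured. They are in no list and were chosen after their values were seen. Mir155hg, the precursor transcript of miR-155, a microRNA that acts on LPS signalling regulators, rose from 4.42 and 4.45 to 10.20 and 10.52 (at least 14.6-fold). Mir22hg, the host of miR-22, rose from 10.75 and 10.71 to 12.02 and 11.96 (1.26 ± 0.10). The mature microRNAs were not measured by these probe sets. Their 5p and 3p sequences, from RefSeq (GRCm38.p6), are shown with the seed (bases 2 to 8), the part that pairs with targets, in capitals; the 4 seeds differ.
miR-155-5p: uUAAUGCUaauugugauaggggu
miR-155-3p: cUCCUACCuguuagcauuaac
miR-22-5p: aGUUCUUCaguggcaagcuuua
miR-22-3p: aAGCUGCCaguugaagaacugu

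Most secreted signals rose. Of 31 interleukins and other cytokines, 25 rose and 2 fell (median 1.84). Tnf, the founding inflammatory cytokine, was already well above the medians and rose from 9.53 and 9.40 to 14.11 and 14.20 (25.7-fold), and Il1rn, the antagonist of the Il1 receptor, rose from 9.31 and 9.18 to 13.86 and 13.80 (24.04-fold). Il12b, the shared p40 chain of interleukins 12 and 23, rose from 4.34 and 4.98 to 10.92 and 10.89 (at least 21.3-fold), Il1a at least 31.2-fold, the anti-inflammatory Il10 from 6.04 and 6.08 to 11.53 and 11.62 (at least 33.8-fold) and the vasoconstrictor Edn1 from 6.45 and 6.503 to 12.17 and 12.12 (at least 50.1-fold). Il16, a chemoattractant for Cd4 cells, fell from 8.40 and 8.66 to 6.68 and 6.79 (3.47-fold). Il11 lay under the medians (6.27 and 6.02 without LPS and 6.11 and 5.98 with it) and did not pass. In the TNF superfamily 15 of 30 genes rose, 8 of them at least 2-fold, and 4 fell. These are 50% and 13.3%, beside 21.3% and 30.9% of all genes tested. Both group means lay under the medians in 10 of the 30. The death receptor Fas rose from 6.80 and 6.72 to 10.63 and 10.68 (14.9-fold), the costimulatory ligand Tnfsf9 (4-1BBL) from 7.88 and 7.97 to 12.25 and 12.31 (20.5-fold) and the death ligand Tnfsf10 (TRAIL) at least 27.2-fold, while the death receptor Tnfrsf21 fell 5.19-fold and Tnfrsf13b, a BAFF receptor, 2.65-fold.

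Of 35 chemokine ligands 22 rose and 3 fell (median 0.64). Ligands of Cxcr3, which draw T cells, rose by large amounts: Cxcl11 from 6.71 and 6.37 to 13.45 and 13.64 (129-fold) and Cxcl9 from 4.66 and 4.93 to 13.23 and 13.25 (at least 107-fold), beside Cxcl10. The monocyte attractant Ccl7 rose from 6.72 and 6.78 to 12.51 and 12.58 (55.4-fold) and its neighbour Ccl12 from 4.72 and 4.62 to 12.01 and 11.99 (at least 45.3-fold). Cxcl3, a neutrophil attractant, rose at least 15.8-fold. Ccl27a, a skin-homing chemokine, fell at least 1.60-fold, and the platelet factor Pf4 did not pass (0.19). On the receiving side, 12 of 40 cytokine receptor genes rose and 11 fell, 30% and 27.5%, beside 21.3% and 30.9% of all genes. The TGF-beta receptor chains Tgfbr1 (-2.34 ± 0.13) and Tgfbr2 (-1.51 ± 0.12), the interleukin-6 chains Il6ra (-1.35 ± 0.13) and Il6st (-1.72 ± 0.14) and Il7r (-1.76 ± 0.10) fell. Il15ra, which presents interleukin 15, rose from 7.28 and 6.96 to 11.67 and 11.76 (24.1-fold) and Il13ra1 7.34-fold.

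Interferon-stimulated genes rose without exception in the antiviral list. These genes are switched on downstream of interferon receptors or directly by interferon regulatory factors. All 42 antiviral members measured rose, from 0.85 to 7.07, with a median of 2.98. The list was written with earlier results of these data known, so this share is not independent of them. The next after Mx1, Oasl1 and Cmpk2 were Mx2, a second dynamin-like GTPase (from 6.96 and 6.496 to 12.08 and 12.18, 42.3-fold), the exonuclease Isg20 (from 7.48 and 7.14 to 12.66 and 12.75, 42.1-fold) and Ifit2, which binds foreign RNA (from 9.52 and 9.19 to 14.62 and 14.72, 39.8-fold). All 11 guanylate-binding and immunity-related GTPases measured rose (median 4.33). These attack the membranes of vacuoles that hold pathogens. Gbp3 rose from 8.41 and 8.33 to 13.87 and 13.85 (44.8-fold), Gbp2 from 9.16 and 8.99 to 14.43 and 14.38 (40.2-fold), Gbp7 37.1-fold and Ifi47 20.1-fold. Of 10 schlafen genes 8 rose, and all 8 Ifi200 genes rose (medians 3.04 and 2.64).

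Upstream of these, 13 of 18 interferon regulatory and JAK-STAT genes rose and 2 fell (72.2% and 11.1%, beside 21.3% and 30.9% of all genes tested). Irf7, the amplifier of type I interferon, rose from 9.84 and 9.76 to 13.53 and 13.60 (13.6-fold), the kinase Jak2 from 9.63 and 9.61 to 13.25 and 13.31 (12.7-fold) and Stat2 7.88-fold, while Irf3 fell by 0.83 and Stat6, the interleukin-4 signal transducer, by 1.21. Ifnb1, the interferon beta gene, rose from 5.60 and 5.75 to 7.48 and 7.54 (at least 2.02-fold); it was named after its values were seen. TRIM ubiquitin ligases split: 11 of 39 rose and 19 fell (28.2% and 48.7%). Trim30d (3.51 ± 0.13) and Trim21, an intracellular antibody receptor (2.998 ± 0.10), rose, and Trim47 (-2.78 ± 0.18) and Trim37 (-1.72 ± 0.13) fell.

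The interferon-stimulated response element (GAAANNGAAA, both strands) was in 26.8% of the 41 promoters listed for 30 antiviral genes (95% Wilson interval 15.7 to 41.9). It was in 77.8% of the 9 promoters of 8 of the GTPases (45.3 to 93.7) and in 3.03% of all promoters. Stretches before the start are shown for 3 genes that rose, with the element in capitals. They lie in GRCm38.p6 at chr19:34640769-34640888, plus strand (Ifit1, from 9.81 and 9.38 to 14.80 and 14.76), chr3:142559984-142560043, plus strand (Gbp3, 1 of 2 listed promoters, with overlapping matches), and chr12:26456453-26456582, minus strand (Rsad2, which encodes the antiviral enzyme viperin, from 10.53 and 10.37 to 15.30 and 15.24). Ifit1 and Rsad2 were named after their values were seen.
Ifit1: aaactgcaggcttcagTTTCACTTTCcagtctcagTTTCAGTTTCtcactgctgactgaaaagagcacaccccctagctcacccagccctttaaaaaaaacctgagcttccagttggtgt
Gbp3: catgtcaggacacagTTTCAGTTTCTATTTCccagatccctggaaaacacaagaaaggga
Rsad2: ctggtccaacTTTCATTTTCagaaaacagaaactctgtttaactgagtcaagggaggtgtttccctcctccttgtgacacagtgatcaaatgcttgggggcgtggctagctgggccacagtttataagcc

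In antigen presentation, peptide processing and transport genes of the class I pathway rose. Of 17 class I and peptide-loading genes 9 rose and 2 fell (52.9% and 11.8%, beside 21.3% and 30.9% of all genes tested). Tap1 and Tap2, the peptide pump of the endoplasmic reticulum, rose from 9.73 and 9.66 to 13.03 and 13.05 (10.2-fold) and by 2.26 ± 0.13, and Nlrc5, the class I transactivator, rose from 9.47 and 9.45 to 12.81 and 12.96 (10.7-fold). The class I chains H2-K1 (14.78 and 14.80 without LPS and 14.60 and 14.62 with it) and H2-D1 and the light chain B2m did not pass. Of the 5 immunoproteasome genes measured 4 rose, with the catalytic subunits Psmb8, Psmb9 and Psmb10 up by 1.48, 1.99 and 2.06. The 40 constitutive proteasome genes had a median of 0.03, with 12 higher and 8 lower (30% and 20%). That median is -0.11 with arrays centred on the spike-ins. The constitutive catalytic counterpart Psmb5 was at 11.99 and 11.98 without LPS and 11.88 and 11.75 with it. Of the class II genes 5 of 11 rose and 1 fell (45.5% and 9.09%). The invariant chain Cd74 and the class II chain H2-Ab1 did not pass (0.02 and 0.08). Of 21 costimulatory and activation molecules 16 rose (median 2.15), among them Cd274 (PD-L1, from 10.07 and 9.85 to 13.17 and 13.27, 9.58-fold), Cd200 (2.74 ± 0.10) and Slamf9 (2.78 ± 0.12). Cd80, a ligand of Cd28, did not pass (6.34 and 6.22 without LPS and 6.47 and 6.58 with it), and the inhibitory receptor Havcr2 (Tim-3) fell by 1.22.

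Effector systems rose at selected steps. Rises made up 64.7% of the inflammasome list, beside 21.3% of all genes tested. Of 17 inflammasome and pyroptosis genes 11 rose, among them Casp4 (caspase-11, the cytosolic LPS sensor, from 10.29 and 10.35 to 13.30 and 13.36, 8.03-fold), the sensor Nlrp3 (from 10.70 and 10.60 to 13.54 and 13.57, 7.52-fold), Mefv (pyrin, 8.62-fold) and the cytokine Il18 (6.30-fold). The adaptor Pycard did not pass (11.93 and 11.90 without LPS and 12.06 and 12.10 with it). In nitric oxide, arginine and itaconate metabolism, Acod1, which makes itaconate, rose from 9.84 and 9.76 to 14.85 and 14.81 (32.7-fold). The arginine transporter Slc7a2 rose from 9.85 and 9.67 to 13.06 and 13.15 (10.2-fold) and Gch1, which makes the nitric oxide synthase cofactor, from 9.86 and 9.77 to 13.32 and 13.24 (11.05-fold). The inducible nitric oxide synthase Nos2 rose from 6.52 and 6.45 to 9.74 and 9.81 (at least 9.70-fold), while Arg1, the competing arginase, lay under the medians (5.18 and 5.09 without LPS and 5.49 and 5.36 with it). The later enzymes of the cofactor route fell, Spr by 1.55 and Pts by 0.74. In prostanoid synthesis, Ptgs2 and the prostaglandin E synthase Ptges (from 7.45 and 7.14 to 11.46 and 11.52, 18.2-fold) rose with the phospholipase Pla2g4a (11.7-fold). Hpgd, which degrades prostaglandins, fell from 11.02 and 11.14 to 9.02 and 8.79 (4.52-fold), as did the leukotriene and thromboxane enzymes Lta4h (-1.31 ± 0.10) and Tbxas1 (-1.35 ± 0.12). The list counted 11 rises and 10 falls of 25 (44% and 40%, beside 21.3% and 30.9% of all genes tested).

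Surface receptors for uptake changed in both directions. Beside 30.9% falls and 21.3% rises among all genes tested, scavenger receptors had 64.7% and 29.4%. Genes for the uptake of dying cells had 48% and 16%. Of 17 scavenger receptors 11 fell and 5 rose: Stab1 (-1.51 ± 0.15) and Scarb1 (-1.25 ± 0.11) fell, while Marco, a receptor for unopsonised bacteria (from 7.27 and 7.36 to 10.40 and 10.19, 7.88-fold), Msr1 (1.84 ± 0.10) and the oxidised lipoprotein receptor Olr1 (from 4.68 and 4.42 to 9.55 and 9.38, at least 7.84-fold) rose. Of 25 genes for the uptake of dying cells 12 fell and 4 rose. The phosphatidylserine receptor family members Cd300lb and Cd300a fell from 12.79 and 12.73 to 9.57 and 9.52 (9.26-fold) and from 12.59 and 12.49 to 10.07 and 10.11 (5.47-fold), and Gas6, the ligand of Axl and Mertk, by 1.81. Axl rose (1.45 ± 0.16) while Mertk fell (-1.18 ± 0.14). Xkr8, a phospholipid scramblase, rose from 7.28 and 7.07 to 10.61 and 10.54 (10.6-fold). Among Fc receptors the inhibitory Fcgr2b and the activating Fcgr4 and Fcgr1 rose by 2.502, 2.28 and 1.86, and the neonatal receptor Fcgrt fell by 0.97. Clec4e (Mincle), a receptor for mycobacterial glycolipid, rose from 10.98 and 11.07 to 14.40 and 14.44 (10.5-fold) and Clec5a by 2.02 ± 0.12, while the beta-glucan receptor Clec7a fell by 0.96. The complement factor gene Cfb rose from 5.99 and 6.35 to 10.73 and 10.83 (at least 19.5-fold), and the membrane regulator Cd59a, which blocks the lytic complex, fell by 0.61.

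Receptors for chemical signals changed in both directions, some of them by large amounts. Among 30 chemoattractant receptors 16 rose, 6 of them at least 2-fold, and 5 fell. These are 53.3% and 16.7%, beside 21.3% and 30.9% of all genes tested. In 11 of the 30 both group means lay under the array medians. The formyl peptide receptor Fpr2 rose from 8.19 and 8.14 to 13.70 and 13.71 (46.6-fold) and the chemerin-binding Ccrl2 15.3-fold. Gpr183, the receptor for oxysterols made from the product of Ch25h, fell from 9.82 and 10.14 to 6.495 and 6.35 (at least 11.1-fold). Among metabolite receptors the niacin receptor Hcar2 rose from 6.59 and 6.504 to 11.80 and 11.82 (38.4-fold) and the fatty acid receptor Gpr84 from 8.80 and 8.88 to 13.08 and 13.05 (18.6-fold). The ATP-gated channel P2rx7, which triggers the Nlrp3 inflammasome, fell from 10.93 and 10.80 to 8.31 and 8.44 (5.60-fold) and the acid sensor Gpr65 3.41-fold. Of 30 integrin and adhesion genes 14 rose, 7 of them at least 2-fold, and 8 fell (46.7% and 26.7%). Icam1 rose from 11.02 and 10.99 to 14.14 and 14.20 (8.98-fold) and Itga6 fell 4.49-fold. Of 35 matrix genes 16 rose, 9 of them at least 2-fold, and 8 fell (45.7% and 22.9%). The plasminogen activator inhibitor Serpinb2 rose from 6.03 and 6.06 to 11.94 and 11.71 (at least 40.1-fold) and coagulation factor F10 8.63-fold. Thrombomodulin (Thbd), an anticoagulant receptor, fell from 8.90 and 8.91 to 6.64 and 6.43 (5.16-fold).

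Mitochondrial genes of energy metabolism mostly fell, by small amounts per gene. Of 27 genes of the tricarboxylic acid cycle 19 fell and 1 rose (median -0.47); Idh1, the cytosolic isocitrate dehydrogenase on the list, fell from 13.59 and 13.56 to 11.71 and 11.59 (3.80-fold), and Idh3g and Idh2 by 1.23 and 1.16. The dehydrogenase subunit Dld rose (0.57 ± 0.12) and citrate synthase (Cs) did not pass (0.07), but the mean of its probe sets did (0.26, adjusted p = 0.0446, limma). Of 70 respiratory chain and ATP synthase subunits 49 fell and 5 rose, with a median of -0.44 and 3 falls of 2-fold or more. Those were the complex I subunits Ndufa6 (from 12.27 and 12.26 to 11.16 and 11.002), Ndufs7 and Ndufs8. Of 74 mitochondrial ribosomal proteins 43 fell and 4 rose (median -0.41), Mrpl41 furthest (from 11.28 and 11.12 to 8.95 and 8.70, 5.18-fold). Of 23 fatty acid oxidation genes 17 fell, including the dehydrogenase Acadm (from 12.08 and 12.10 to 10.19 and 10.07, 3.89-fold) and the thioesterase Acot2 (5.60-fold). The shares of falls, 70.4%, 70%, 58.1% and 73.9%, stood against 30.9% over all genes. In the next to highest and highest signal groups, 58.3% and 45.3% of genes fell. The share of the mitochondrial ribosome list was thus no higher than that of the next to highest group. The lists were not matched for signal level. Centring arrays on the spike-ins lowered every gene's change by 0.137, and so the medians of these lists by construction.

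Sugar metabolism genes changed in both directions. Of 31 glycolytic and HIF-1 target genes 13 rose and 13 fell (41.9% each, beside 21.3% rises and 30.9% falls among all genes tested). Pfkfb3, which makes the allosteric activator of phosphofructokinase, rose from 8.27 and 8.09 to 12.03 and 11.94 (13.97-fold), the transporter Slc2a6 from 9.34 and 9.46 to 13.04 and 13.09 (12.7-fold), the phosphofructokinase Pfkp 3.21-fold, the glucose transporter Slc2a1 2.72-fold and Hif1a by 1.09 ± 0.11. Pfkfb4, a relative of Pfkfb3, fell 2.70-fold, and the growth factor Vegfa, a HIF-1 target, fell from 9.30 and 9.15 to 6.90 and 7.16 (4.57-fold). The transporter Slc2a3 fell from 10.02 and 10.12 to 7.22 and 7.501 in the probe set used, but a probe set not open to cross-hybridisation gave a change of 0.13 that did not pass. The lower glycolytic enzymes Pgk1 and Ldha did not pass (0.11 and 0.16). Of 10 pentose phosphate genes 8 fell, Pgls and Taldo1 by 1.12 and 1.07, and Rpe rose (1.17 ± 0.10).

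Cholesterol synthesis genes had no common direction, and LXR targets mostly fell. Of 21 cholesterol genes 7 rose and 10 fell (33.3% and 47.6%, beside 21.3% and 30.9% of all genes tested). The late enzyme Dhcr7 was down 4.76-fold (from 9.47 and 9.44 to 7.15 and 7.26) and the isomerase Idi1 up by 1.23 ± 0.13. Also on this list is Ch25h, named above, which makes a product of cholesterol and rose from under the array medians. Of 23 LXR targets and lipid-handling genes 13 fell and 4 rose (56.5% and 17.4%). The transporter Abcg1 (-1.44 ± 0.13) and the LDL receptor ligase Mylip (-1.90 ± 0.11) were lower. Lipg, endothelial lipase, was higher (from 4.41 and 3.71 to 12.47 and 12.66, at least 67.04-fold). The cholesterol exporter Abca1 did not pass (-0.05).

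Lysosome and autophagy genes fell broadly. Lysosomes degrade what the cell takes up and are acidified by a proton pump, the vacuolar ATPase; autophagy delivers the cell's own material to them. Of 50 lysosomal genes 38 fell and 3 rose (median -0.59), a share of falls of 76% against 30.9% over all genes. In the next to highest and highest signal groups the shares of falls were 58.3% and 45.3%. The pump subunits Atp6v0d2 and Atp6v0a1 fell from 12.81 and 12.70 to 11.01 and 10.73 (3.70-fold) and from 11.68 and 11.52 to 9.86 and 9.84 (3.37-fold), the cholesterol exporter Npc1 fell by 1.70 and the sialidase Neu1 by 1.504. The protease Ctsc (1.67 ± 0.10) and the factor Mitf (1.23 ± 0.10) rose, and the cathepsins Ctsb and Ctss did not pass (-0.14 and -0.01), although the mean of the Ctsb probe sets fell by 0.51 (adjusted p = 0.00195, limma). Tfeb, a factor that drives lysosomal genes, fell (-1.22 ± 0.12) and was named after its values were seen. Of 29 autophagy genes 21 fell and 3 rose (median -0.95). The initiating kinases Ulk1 and Ulk2 fell from 9.88 and 9.79 to 7.81 and 7.96 (3.85-fold) and from 9.90 and 9.996 to 8.03 and 7.88 (3.98-fold), the cargo receptor Nbr1 4.74-fold and the membrane protein Gabarapl1 3.27-fold. The receptor Tax1bp1 rose (0.99 ± 0.11), and the receptor Sqstm1 did not pass (-0.10).

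The E-box CACGTG is known to be read by TFEB and related factors in lysosomal promoters. It was in 27.7% of the 47 promoters listed for 39 lysosomal genes (95% Wilson interval 16.9 to 41.8) and in 8.72% of all promoters. It is shown in capitals for 3 lysosomal genes that fell, chosen after their values were seen. The ion channel Mcoln1 fell from 10.39 and 10.33 to 9.33 and 9.17, the pump subunit Atp6v1a from 13.55 and 13.56 to 12.39 and 12.48 and the beta-galactosidase Glb1 from 11.14 and 11.19 to 10.23 and 10.41. The stretches lie in GRCm38.p6 at chr8:3500429-3500518, plus strand (Mcoln1), chr16:44139260-44139399, minus strand (Atp6v1a), and chr9:114401018-114401077, plus strand (Glb1).
Mcoln1: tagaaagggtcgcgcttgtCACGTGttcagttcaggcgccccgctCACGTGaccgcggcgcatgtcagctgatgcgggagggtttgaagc
Atp6v1a: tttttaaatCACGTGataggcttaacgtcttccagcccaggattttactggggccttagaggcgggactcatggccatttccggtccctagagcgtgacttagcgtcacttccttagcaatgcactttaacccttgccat
Glb1: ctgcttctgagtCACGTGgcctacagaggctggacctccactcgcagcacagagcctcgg

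Genes of cell division fell more often than they rose, as did all genes tested (30.9% against 21.3%). The shares of falls were 63.3% for replication, 51% for mitosis and 51.3% for repair genes. Rises made up 10.2%, 22.4% and 5.13%, so that the share for mitosis was near that of all genes. Of 49 DNA replication and nucleotide synthesis genes 31 fell and 5 rose (median -0.77). The helicase subunits Mcm7 and Mcm3 fell from 9.89 and 10.08 to 6.97 and 7.11 (7.71-fold) and from 9.17 and 9.17 to 7.25 and 7.36 (3.64-fold), and the maintenance methyltransferase Dnmt1 fell from 11.19 and 11.29 to 8.83 and 8.99 (5.04-fold). The clamp Pcna (0.22) and the helicase subunit Mcm6 (0.23) did not pass, and the salvage kinase Dck rose 4.57-fold. Of 49 mitosis and cyclin genes 25 fell and 11 rose: the phosphatase Cdc25b fell 5.44-fold, the cyclin D kinase Cdk4 from 11.06 and 11.01 to 9.14 and 9.25 (3.58-fold) and the spindle motor Kif23 3.998-fold, while Mki67 did not pass (0.46) and Ccnd2, a D-type cyclin, rose from 6.66 and 5.60 to 12.02 and 12.04 (at least 46.3-fold). Of 39 repair genes 20 fell, among them Xpc, which detects helix distortion (from 9.49 and 9.503 to 7.07 and 6.83, 5.86-fold), and the mismatch factor Msh6 (at least 2.09-fold). The E2F element (TTTNNCGC, both strands) was in 37.7% of the 53 promoters listed for 42 replication genes (25.9 to 51.2) and in 6.98% of all. It is shown in capitals for Mcm7 at chr5:138171884-138172053, minus strand, GRCm38.p6 (1 of 2 listed promoters).
Mcm7: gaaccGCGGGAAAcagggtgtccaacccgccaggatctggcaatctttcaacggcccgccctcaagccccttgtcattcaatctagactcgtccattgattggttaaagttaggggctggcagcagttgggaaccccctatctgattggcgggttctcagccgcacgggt

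Growth-arrest genes changed in both directions. Of 28 such genes 13 fell and 8 rose (46.4% and 28.6%, beside 30.9% and 21.3% of all genes tested). The factor Foxo3 fell from 10.47 and 10.42 to 7.42 and 7.59 (7.69-fold) and Trp53inp1 6.11-fold, beside Sesn1. The cyclin kinase inhibitor Cdkn1a (p21) rose from 11.27 and 11.17 to 14.15 and 14.17 (7.68-fold), the stress gene Gadd45b from 9.92 and 9.99 to 13.12 and 13.12 (8.98-fold) and the pocket protein Rbl1 6.80-fold, whereas its relatives Rb1 and Rbl2 fell by 1.36 and 1.57. Among death genes 9 of 24 rose and 5 fell. The necroptosis executor Mlkl rose from 8.19 and 8.21 to 11.72 and 11.76 (11.6-fold), the caspase-8 inhibitor Cflar 8.81-fold and the inhibitor of apoptosis Birc3 3.39-fold. Casp9 (-1.97 ± 0.16) and the pro-apoptotic Pmaip1 (Noxa, -1.71 ± 0.14) fell, and the survival factor Bcl2 did not pass (0.29), with probe sets that disagreed (-0.43 for their mean). Rb1 was named after its values were seen.

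Genes of the protein synthesis machinery mostly fell or did not pass, and of all genes tested 30.9% fell and 21.3% rose. Of 41 ribosome biogenesis genes 27 fell and 3 rose (median -0.51), with Wdr12 (from 9.28 and 9.28 to 7.51 and 7.47, 3.46-fold) and the pseudouridine synthase Dkc1 (3.16-fold) lower. Of 43 cytosolic ribosomal proteins 22 fell and 1 rose, by a median of -0.26. Of 25 RNA polymerase subunits 16 fell. Among aminoacyl-tRNA synthetases 9 of 18 fell, Sars by 1.44, and 4 rose, the tryptophan enzyme Wars by 1.23 ± 0.13. Chaperones were mixed, with 10 higher and 11 lower of 32, and the inducible Hsp70 genes Hspa1b and Hspa1a rose from 7.55 and 7.48 to 11.43 and 11.36 (14.7-fold) and from 6.92 and 6.59 to 9.51 and 9.44 (6.58-fold). These 2 genes are near-identical and their probe sets may share signal. In the unfolded protein response the kinases Eif2ak3 (PERK, from 10.06 and 10.07 to 7.31 and 7.35, 6.66-fold) and Ern1 (IRE1, -1.47 ± 0.10) fell, the chaperone Hspa5 rose by 0.49 ± 0.11, and Xbp1 did not pass (-0.13). Among amino acid transporters the cystine carrier Slc7a11 rose from 6.34 and 6.37 to 10.44 and 10.31 (at least 14.7-fold) and the neutral carrier Slc43a2 fell from 13.17 and 13.09 to 9.73 and 9.69 (10.7-fold).

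Antioxidant genes fell more often than they rose, 18 against 8 of 30 (60% and 26.7%), beside 30.9% and 21.3% of all genes tested. Gclm and Gclc, the subunits of the rate-limiting enzyme of glutathione synthesis, fell from 12.02 and 12.17 to 10.51 and 10.42 (3.09-fold) and from 10.14 and 10.07 to 8.53 and 8.46 (3.05-fold), and catalase (Cat) fell by 1.20. Sod2, the mitochondrial superoxide dismutase, rose from 12.56 and 12.53 to 14.73 and 14.60 (4.35-fold), glutathione reductase (Gsr) 2.32-fold and the heme oxygenase Hmox1 by 1.02 ± 0.17. Of 30 iron and metal genes 12 rose and 11 fell. Beside Slc40a1, the heme exporter Flvcr1 fell from 12.02 and 12.13 to 9.25 and 9.06 (7.55-fold) and the transferrin receptor Tfrc 3.21-fold. The ferroxidase Cp (ceruloplasmin) rose from 7.05 and 6.94 to 12.08 and 12.01 (33.1-fold), Lcn2 from 5.31 and 5.48 to 11.33 and 11.15, the zinc and iron carrier Slc39a14 9.19-fold and metallothionein Mt2 9.85-fold. The ferritin heavy chain Fth1 did not pass (0.02).

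Regulators of gene expression changed in both directions, beside 21.3% rises and 30.9% falls among all genes tested. The shares of falls were 52% for nuclear receptors, 55% for clock genes and 47.1% for chromatin modifiers. Of 33 lineage factors 18 rose and 6 fell (median 0.69). The homeobox factor Lhx2 rose from 3.60 and 4.09 to 9.99 and 10.01 (at least 11.3-fold), the repressor Gfi1 at least 6.36-fold, Ets2 from 9.09 and 8.97 to 12.56 and 12.74 (12.3-fold) and Zeb1 9.63-fold, while Runx1, which sets up the myeloid lineage, fell 2.87-fold and Irf8 did not pass (-0.22). Of 25 nuclear receptors 13 fell and 4 rose: Rxra, the shared partner of many of them, fell from 10.60 and 10.53 to 7.43 and 7.43 (8.78-fold), Rora 6.16-fold and the lipid-sensing Pparg from 9.64 and 9.58 to 7.38 and 6.96 (5.42-fold), while Nr4a3 rose at least 5.13-fold. Of 20 clock genes 11 fell, with Dbp down at least 5.56-fold and Per1 by 1.49. Clock did not pass (-0.12), but the mean of its probe sets fell by 0.53 (adjusted p = 0.00196, limma). Of 51 chromatin modifiers 24 fell and 11 rose, the histone deacetylase Hdac5 falling from 11.08 and 11.24 to 7.57 and 7.96 (10.5-fold) and the demethylase Kdm6b, a known LPS-induced enzyme, rising 2.91-fold. Zinc finger genes named Zfp fell in 185 of 336 cases and rose in 35 (median -0.45). Among signals of development the Notch ligands Jag1 and Dll1 rose from 8.68 and 8.75 to 11.38 and 11.32 (6.24-fold) and by 2.31 ± 0.21, and the Wnt receptor Fzd1 rose 9.69-fold.

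Of 30 growth factor and angiogenic genes 13 rose and 9 fell. Vegfb fell from 9.53 and 9.64 to 7.39 and 7.26 (4.78-fold) beside Vegfa, and the platelet-derived factors Pdgfb and Pdgfc fell 3.29-fold and 3.47-fold. From under the array medians rose the lymphatic factor Vegfc (from 5.34 and 5.14 to 8.21 and 8.44, at least 3.54-fold) and the receptor kinases Met (from 6.34 and 6.58 to 10.71 and 10.74, at least 18.8-fold) and Pdgfrb (from 5.12 and 5.12 to 9.04 and 8.88, at least 5.51-fold). Among TGF-beta, Wnt and Notch genes 12 of 46 rose and 14 fell (26.1% and 30.4%), close to the 21.3% and 30.9% of all genes tested. Genes of Smad proteins, which carry the TGF-beta signal or inhibit it, that fell were Smad6 (-1.34 ± 0.11), Smad3 (-1.10 ± 0.11) and Smad7 (-0.95 ± 0.12). The NADPH oxidase, which makes superoxide, had 2 rises and 3 falls of 9 (22.2% and 33.3%), which is the share among all genes tested, with its membrane subunit Cyba down by 0.41.

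Families counted by name gave further groups, described by counts alone. Of 11 poly(ADP-ribose) polymerase genes 7 rose and 4 fell, so that all passed in 1 direction or the other. Of 17 Ms4a genes, a family of membrane proteins of immune cells, 8 rose, 5 of them at least 2-fold, and 0 fell. In 10 of the 17 both group means lay under the array medians. Of 60 WD repeat genes 34 fell and 7 rose, beside 30.9% and 21.3% of all genes tested. Of 25 histone genes 9 fell (36%, near that share) and 2 rose, and 10 had both group means under the array medians. Solute carriers, a mixed family of 320 genes, lay close to the background, with 25% higher and 29.4% lower.

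**Figure D3:**
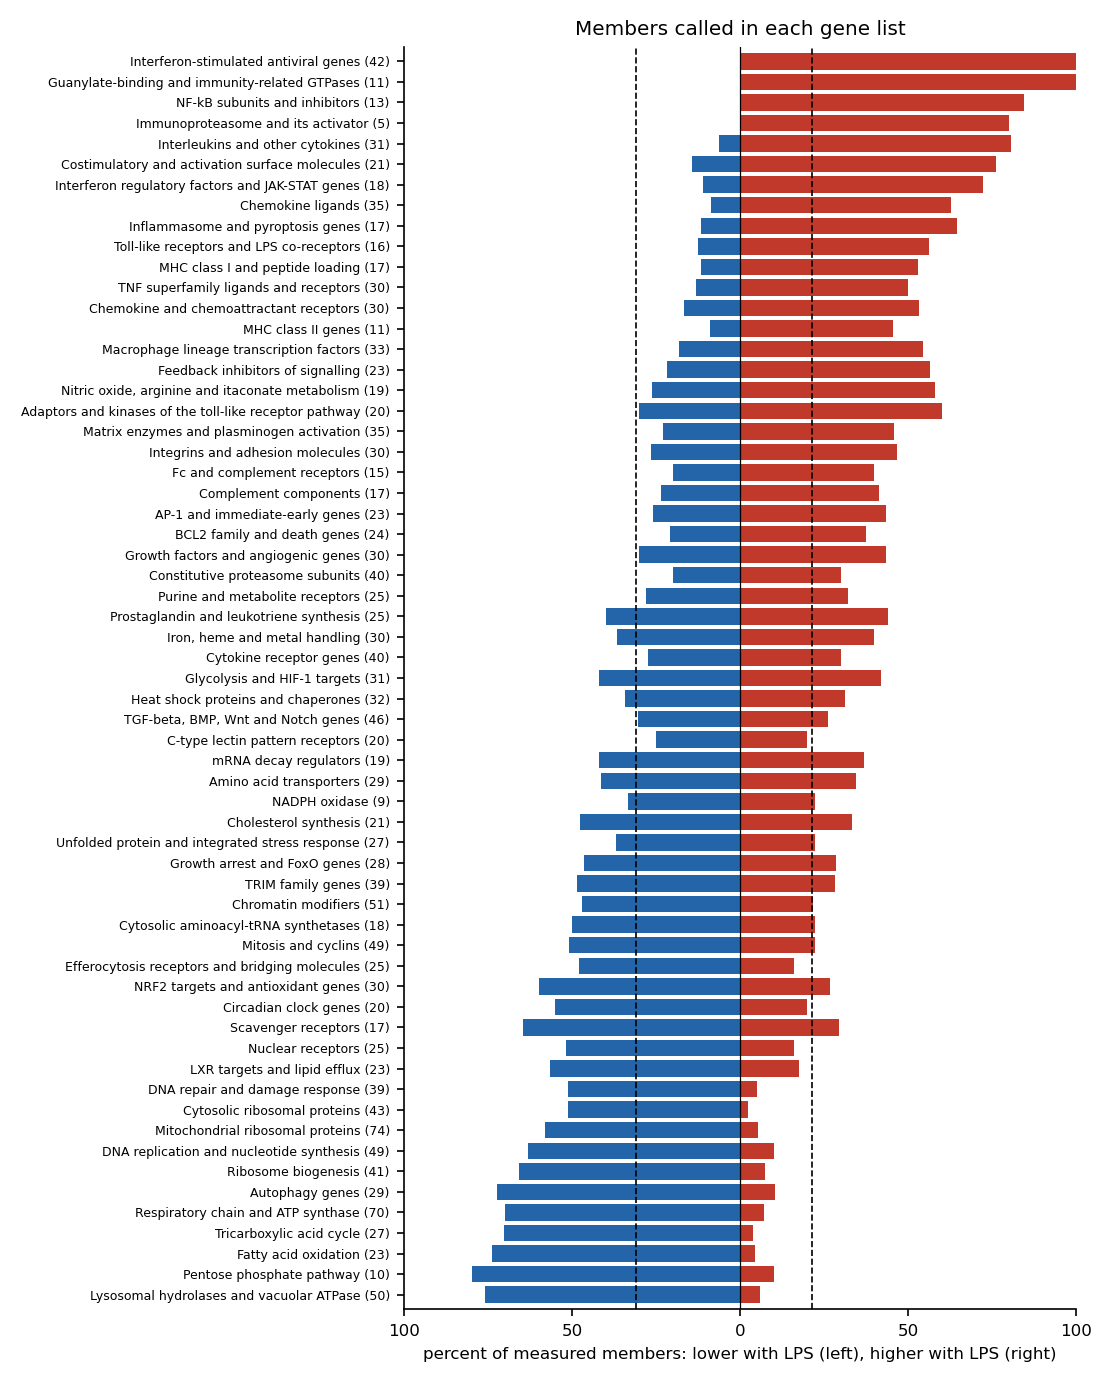
Percent of the measured members (number in brackets) of each of 61 gene lists that rose (red, to the right) or fell (blue, to the left) with LPS in wild-type macrophages. Dashed lines mark 21.3% and 30.9%, the shares of all 18193 genes. The antiviral and GTPase lists reach 100% higher, and lysosomal, pentose phosphate, fatty acid oxidation, tricarboxylic acid cycle, respiratory chain and autophagy lists lie at 70% lower or beyond.

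Motif shares were also set beside each other for genes that rose or fell at least 2-fold. The interferon element was in 8.1% of the 1050 promoters of genes that rose (95% Wilson interval 6.59 to 9.9), 2.07% of the 2271 promoters of genes that fell (1.56 to 2.74) and 2.86% of the promoters of genes that were not called. The NF-kB consensus was in 13.4% (11.5 to 15.6), 10.1% (8.95 to 11.4) and 9.64%. The E-box was in 8.95%, 11.8% and 7.07%, and the E2F element in 6.1%, 9.25% and 6.02%. AP-1 (TGANTCA) was in 7.9%, 4.76% and 7.02%, and CCAAT in 33.7%, 38.4% and 37.2%. The TATA box (TATAAA) was in 10.6%, 5.68% and 11.4%, and the GC box (GGGCGG) in 58.5%, 65.3% and 44.8%. The median number of CG dinucleotides per promoter was 17 in genes that rose, 20 in genes that fell and 12 in genes not called. It was 8 in the antiviral list, 5 in the cytokine list and 21 in the mitochondrial ribosome list. Promoters of a gene overlap and genes of a family share sequence, so the intervals cover counting error only and no test was made.

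**Figure D4:**
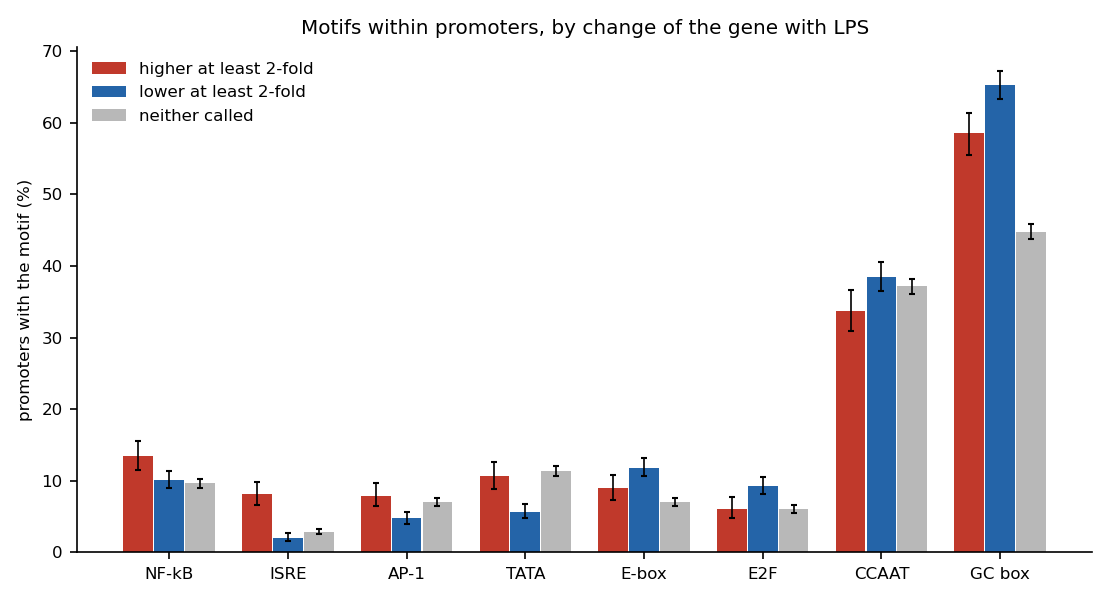
Percent of RefSeq promoters (300 bases, GRCm38.p6) that hold each motif on either strand, for genes that rose at least 2-fold (red), fell at least 2-fold (blue) or were not called (grey); bars start at 0 and whiskers are 95% Wilson intervals. The interferon-stimulated response element (ISRE) stands at 8.1% in genes that rose against 2.07% in genes that fell.

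The wild-type response was set against that of Tpl2-deficient macrophages by testing the difference of both changes. It passed for 1563 genes, 8.59% of those tested, of which 1327 had risen or fallen in wild type. The count depends on single arrays: it was 756 to 940 without any 1 wild-type or unstimulated array, and 2565 and 2489 without deficient LPS replicates 1 and 2. The antiviral list held 3 of 42 such genes and had medians of 2.98 in wild type and 2.92 in deficient cells. Of 33 lineage factors 17 differed. The mitochondrial ribosome list had medians of -0.41 and 0.00; 16 of its 74 members differed, all with the lower change in wild type. In the respiratory chain 9 of 70 differed, all in the same direction, with medians of -0.44 and -0.08. Mir22hg, which rose in wild type, went from 10.80 and 10.78 to 10.73 and 10.83 in the deficient arrays (difference of responses, wild type minus deficient, 1.27 ± 0.14, adjusted p = 0.000233, limma interaction). Fos fell by 1.38 in wild type and by more in deficient cells (from 13.12 and 12.90 to 8.94 and 8.82; difference 2.74 ± 0.16). Cxcr4 fell from 13.01 and 12.96 to 8.53 and 8.55 in the deficient arrays, ending above both wild-type LPS arrays (difference -1.68 ± 0.13, adjusted p = 3.28e-05, limma interaction). Il10 rose in wild type from 6.04 and 6.08 to 11.53 and 11.62 and in deficient cells from 6.21 and 6.09 to 8.89 and 8.81 (difference 2.82 ± 0.14).

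**Figure D5:**
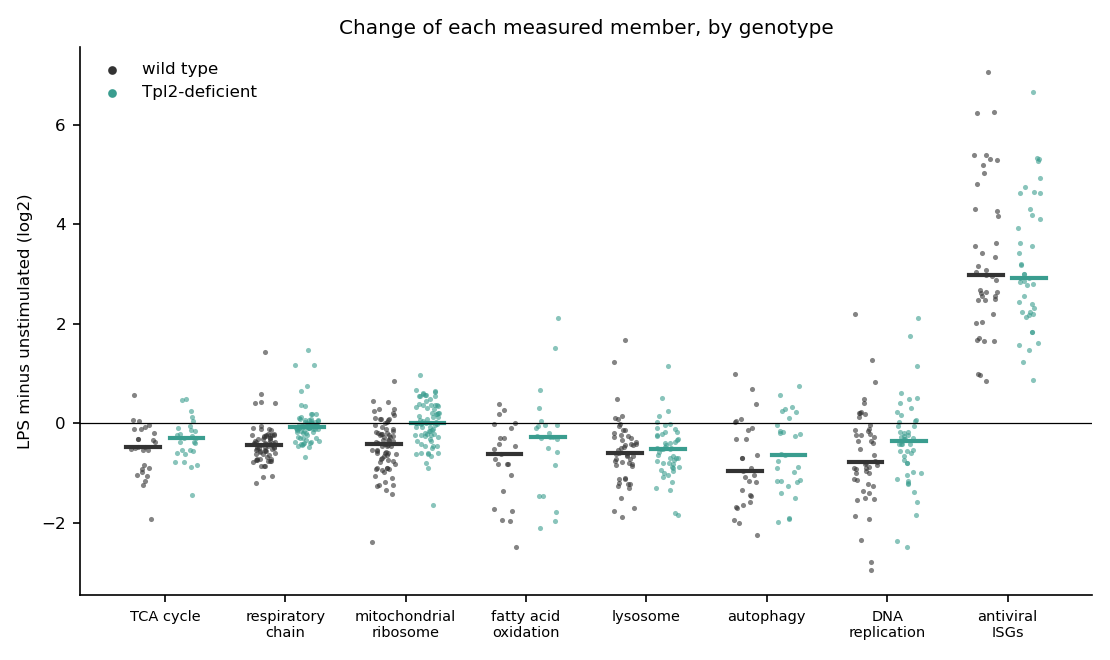
Change with LPS (LPS minus unstimulated, log2, y axis) of each measured member of 8 gene lists, in wild-type (dark) and Tpl2-deficient (green) macrophages; thick lines are list medians. Wild-type medians lie at -0.41 for the mitochondrial ribosome and -0.44 for the respiratory chain, deficient medians at 0.00 and -0.08, while the antiviral interferon-stimulated genes (ISGs) lie at 2.98 and 2.92.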

How the data were processed

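The values are log2 RMA intensities that the authors deposited, 45101 probe sets on 8 arrays of a mouse expression array. GCOS and RMA are named per the submitters' processing notes, with no versions given in the sources used here. Depth does not apply to arrays, and the number of arrays limits the precision. Exactly 1 symbol in the platform annotation was given to 34958 probe sets, against 932 with several and 9211 with none. The 34945 of them that are not controls were grouped by gene. The probe set with the highest mean over all 8 arrays stood for each of 18193 genes, 9010 of which had several probe sets. Of the probe sets with 1 symbol that are not controls, 34741 matched RefSeq by gene identifier. A model with a mean for each of 4 groups was fitted to all genes with limma 3.58.1 (R 4.3.3; lmFit and eBayes), and p-values were Benjamini-Hochberg adjusted over all genes. The fit was tested on simulated data.

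Gene lists, marker lists and families were written out by symbol, and members and lists were chosen with earlier results of these data known. Named were the 12 largest rises and falls measured on both sides, the 12 largest bounds, up to 6 members per list and direction, a fixed set, and members that did not pass. Il1rn, Ly96 and Per1 are further genes named after their values were seen. Promoter motifs were searched as letters on both strands of RefSeq promoters (GRCm38.p6). Alternatives varied the probe set choice, the scaling, the filter, the variance model, the block and the arrays left out.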

Additional observations from a re-analysis of the deposited data

Results flagged for a closer look

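Of the genes named above, 95 had a difference between the wild-type and the Tpl2-deficient LPS response that passed the interaction test (limma, adjusted p under 0.05), which is what singled them out. They were named for their wild-type values, 8.59% of all genes passed this test, and the count depended on single arrays, so that they are given as values (wild-type minus deficient response, log2) without an explanation.

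Among genes that rose in wild type, 52 had the more positive response there. Among them were Ccl7 (3.41), Ccnd2 (2.39), Cd69 (0.91), Ch25h (2.55), Clec5a (0.69), Cmpk2 (0.98), Ctsc (0.52), Cxcl3 (1.33), Dusp1 (1.41) and Dusp16 (0.70). To these belong Edn1 (1.93), Ets2 (1.46), Fcgr4 (0.79), Fzd1 (0.81), Gbp2 (0.90), Gpr84 (1.79), Gsr (0.99), Hcar2 (4.16), Hmox1 (3.01) and Hspa1b (0.85). The group also held Ier3 (1.91), Il10 (2.82), Il13ra1 (0.92), Il1a (3.53), Il1b (2.66), Irak3 (1.41), Kdm6b (1.46), Lipg (1.85), Marco (2.29) and Met (1.21). A further part was Mir22hg (1.27), Mitf (0.72), Mmp13 (1.25), Msr1 (1.08), Mt2 (1.21), Nlrp3 (1.04), Oasl1 (0.93), Olr1 (3.59), Pfkfb3 (0.60) and Pla2g4a (1.44). The others were Rsad2 (0.72), S100a8 (0.81), Serpinb2 (3.33), Slamf9 (1.51), Slc2a1 (0.99), Slc39a14 (3.35), Slc7a11 (1.15), Slfn4 (1.73), Vegfc (1.53), Zc3h12a (1.24), Zc3h12c (0.91) and Zfp36 (1.48). The response was less positive in wild type for 11 genes that rose. These took in Acp5 (-1.15), Cd200 (-0.64), Cxcl11 (-0.78), Gadd45b (-0.83), Gfi1 (-1.54), Ifnb1 (-2.49), Il12b (-1.01), Lhx2 (-1.16), Nr4a3 (-1.68), Traf1 (-0.84) and Zeb1 (-0.99).

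Among genes that fell in wild type, the response was the more negative in wild type in 18. They comprised Abcg1 (-0.86), Atp6v0a1 (-1.06), Blnk (-0.89), Cxcr4 (-1.68), Dhcr7 (-0.73), Gpr183 (-1.51), Idh1 (-0.50), Irf3 (-0.55), Kit (-0.75) and Mertk (-0.89). Next to them stood Mrpl41 (-0.74), Mylip (-2.30), Ndufa6 (-0.71), Ndufs7 (-0.62), Pgls (-0.73), Pmaip1 (-1.50), Rbl2 (-0.78) and Vegfb (-0.88). The wild-type response was the less negative in 11 genes that fell. This applied to Arrdc3 (0.62), Cd300lb (4.46), Cebpa (0.90), Clec7a (0.57), Dusp6 (3.47), Fos (2.74), Havcr2 (1.29), Smad6 (0.97), Tlr13 (1.34), Tlr4 (1.53) and Zfp36l2 (1.68). The wild-type change itself had not passed in 3, namely Abca1 (0.79), Dusp4 (2.72) and Xbp1 (0.58).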

How the results depend on the processing

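The direction of change held for every gene named as rising or falling except Slc2a3 under the alternatives tried, and of 294 such genes 3 lost the call or turned at least once when the 2-fold minimum is set aside (Ly96, Mrc1 and Slc2a3). Of 95 named genes with a difference between genotypes, 32 lost it at least once. With arrays centred on the spike-ins, 2091 genes rose and 1022 differed between genotypes, and the median change of all genes moved from 0.04 to -0.09, so that small rises depend on the scaling; the cause was not tested. Testing against a 2-fold minimum, a stricter question by construction, left 709 rises and 1134 falls. Without 1 array, 2630 to 4653 genes rose, 4888 to 6027 fell and 756 to 2565 differed between genotypes. With a replicate block (number within genotype) 3516 rose, 5455 fell and 1289 differed. Arrays of the same number did not deviate together (correlations of deviations -0.0413 in wild type and -0.12 in deficient cells). With the numbers crossed in the deficient groups, added after seeing the data, 1950 differed. Only 4 arrays carry the response, 2 a group, and levels under the array medians are not shown to be above background.

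Promoter shares moved beyond their intervals in these cases. When only bases before the start were searched, the E-box was in 10.0% of promoters of genes that fell. The NF-kB consensus was in 8.59% of them and the E2F element in 7.88%. A shorter search can only lower a share. Over all promoters it gave 7.38%, 8.56% and 5.84% for these motifs, instead of 8.72%, 9.98% and 6.98%. The E2F element was in 7.16% for falls of 4-fold, and the interferon element in 11.6% for rises of 4-fold.

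Apart from Slc2a3, the genes whose change turned its sign had not passed the test as reported; Bcl2 (adjusted p = 0.00232) and H2-D1 (adjusted p = 0.0399) passed it (limma) when probe sets were averaged, the cause of which was not tested. Another 16 named genes that had not passed did so, with their sign kept, under at least 1 alternative. With probe sets averaged these were Cd80 (0.349), Clock (-0.529), Cs (0.258), Csf1r (-0.566) and Ctsb (-0.511). Csf1r and Arg1, B2m, H2-K1, Irf8, Mcm6, Mki67, Myc, Pcna, Psmb5, Tnip2 and Xbp1, like Cd80, passed under other settings, Mki67 among them without unstimulated replicate 2 (0.78). With probe sets of a gene averaged, the values were Abca1 0.224, Bcl2 -0.434, H2-D1 0.219, H2-K1 0.147, Sqstm1 0.0197, Traf6 0.142 and Xbp1 0.131. Without probe sets open to cross-hybridisation, the values were H2-D1 0.0987 and Slc2a3 0.126. With quantile normalization repeated, the values were Cd3g -0.0111, Clock 0.126, Ctss 0.0362, H2-Ab1 -0.0367, H2-D1 0.0302, Hba-a1 -0.00684, Itgam 0.0187, Pgk1 -0.000672 and Traf6 0.237. With arrays centred on the spike-ins, the values were Cd3g -0.0415, Cd74 -0.121, Cs -0.0697, Dusp4 -0.0237, Fth1 -0.117, H2-Ab1 -0.0581, Hba-a1 -0.0319, Pgk1 -0.0231, Tlr5 -0.0464, Tlr9 -0.0954 and Tnip2 -0.0199. With 1 array left out, they ranged as follows: Cd74 -0.0233 to 0.0559, Cd79a -0.158 to 0.0481, Ctss -0.0319 to 0.0118, H2-D1 -0.0154 to 0.0072, Il11 -0.229 to 0.0183, Tlr9 -0.015 to 0.0988 and Traf6 -0.0368 to 0.0267.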
